A study of Mus musculus with 221 samples.

Results

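The genes described here are 9 regulators of the G1 phase of the cell cycle, out of 23244 features measured: the D cyclins Ccnd1, Ccnd2 and Ccnd3, the kinases Cdk4, Cdk6 and Cdk2, the Cdk inhibitors Cdkn1b and Cdkn1c, and Gadd45g. They were chosen by name, and their rows were read in all 221 single cells of the series. The tissue was medial neocortex, dissected from mouse embryos of the strain C57BL/6J at E18.5, shortly before birth; the labels give the sex as female, and no group was treated or mutant. Neocortices of 8 embryos were pooled for each of 2 cell suspensions, of which pool 1 gave 122 cells and pool 2 gave 99. Cells were captured on a Fluidigm C1 chip and their full-length cDNA was sequenced one cell per library.

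A cell decides in G1 whether to divide again. D cyclins bind and activate Cdk4 and Cdk6, which phosphorylate the retinoblastoma protein and release E2F transcription factors, and cyclin E with Cdk2 then starts DNA replication. Cdkn1b and Cdkn1c encode inhibitors of the Cip/Kip family that bind cyclin-kinase complexes and hold cells out of the cycle, and Gadd45g encodes a stress and growth-arrest protein that is transcribed briefly in cells committing to neurogenesis. In the cortex, radial glia are the stem cells at the ventricle, Eomes (Tbr2) marks the intermediate progenitors they give rise to, and the neurons made by these leave the cycle for good.

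Values are TPM, which are scaled for transcript length and add up to 1000000 in each cell. No value is 0: in each cell 71.1 to 90.8% of the genes share the same lowest value, called the floor, which lies between 1.33 and 2.998 TPM. A gene is called detected in a cell when it is above that floor. Cells had 2146 to 6727 genes above the floor, and read numbers are unknown. Classes were set by marker genes that are not among the 9. Radial glia-like cells (38) had at least 5 of 8 radial glia markers and no Eomes, Eomes-positive cells (32) had Eomes, newborn neuron-like cells (55) had Neurod1 without either, and excitatory neuron-like cells (65) had at least 3 of 7 markers of excitatory neurons. A further 30 cells were interneuron-like and 1 was left unnamed. The median number of genes detected was 4230.5 in radial glia-like, 4262.5 in Eomes-positive, 4037 in newborn neuron-like and 3971 in excitatory neuron-like cells. It was lower in interneuron-like cells, at 3662.

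The radial glia gate turned out to be loose. Neurod6, a transcription factor of excitatory neurons, had a median of 878 TPM in the 38 radial glia-like cells, against 1697 TPM in excitatory neuron-like cells. The 38 cells were therefore also divided by Slc1a3, the glutamate transporter GLAST, a limit set after these marker values had been seen. The 19 cells with at least 100 TPM, called Slc1a3-high, had median levels of 795 TPM for Hes5 and 215 TPM for Neurod6. The 19 Slc1a3-low cells had 23.8 TPM for Hes5 and 1646 TPM for Neurod6, and so go against their gate's name. The median number of genes detected was 4333 in Slc1a3-high and 4164 in Slc1a3-low cells, against 3971 in excitatory neuron-like cells. What part this has in the detected shares was not tested. Eomes-positive cells held neuronal RNA too, with a median of 1458 TPM for Neurod6 and at least 100 TPM of it in 30 of 32 cells. All 19 Slc1a3-low cells carried the suffix A in their names, as did 14 of the 19 Slc1a3-high cells and 36 of 65 excitatory neuron-like cells. The labels do not say what the suffix marks, and its part in the results was not tested. Markers of other cell types were looked for in all 221 cells. At least 1 marker was detected in 0 cells for endothelium (6 markers), in 4 for meningeal or mural cells (6), in 11 for microglia (6), in 19 for oligodendrocyte precursors (4) and in 21 for Cajal-Retzius cells (5). At least 3 were detected in 1 cell for microglia and in 1 for oligodendrocyte precursors, and both fell in the interneuron-like class.

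The oligodendrocyte lineage was unequal between the classes. Of the 4 precursor markers (Pdgfra, Sox10, Cspg4, Olig2), at least 1 was detected in 7 of 19 Slc1a3-high and 0 of 19 Slc1a3-low cells, 4 of 32 Eomes-positive, 2 of 55 newborn neuron-like and 2 of 65 excitatory neuron-like cells, and in none of these classes did a cell hold 3. Their summed level ran between 5.74 and 512 TPM in Slc1a3-high cells (median 7.51 TPM), and between 5.33 and 33.2 TPM in excitatory neuron-like cells (median 7.47 TPM). Olig1, a transcription factor of the same lineage that is also found in some progenitors, was detected in 9 of 19 Slc1a3-high cells (mean 338 TPM), 0 of 19 Slc1a3-low cells and 10 of 65 excitatory neuron-like cells (mean 22.3 TPM). The Slc1a3-high comparisons were therefore also run on the 10 Slc1a3-high cells without Olig1, 6 in pool 1 and 4 in pool 2, likewise after the data were seen. Cells with Olig1 were left out of the radial glia-like class only. The classes set against it kept theirs, among them 7 of 32 Eomes-positive cells (mean 23.0 TPM over the class).

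Across the 4 classes from radial glia-like to excitatory neuron-like cells, the D cyclins had their highest mean levels in Eomes-positive and radial glia-like cells, Cdk4 was detected in every cell, and the inhibitors Cdkn1b and Cdkn1c had their highest mean levels in neurons. Ccnd2 was the most abundant D cyclin in every one of these 4 classes except excitatory neuron-like cells, in which Ccnd3 had the higher mean. When the classes were compared over the pools with limma (2 pools per class, 10 profiles in the fit), 0 of the 9 genes passed in radial glia-like minus excitatory neuron-like cells, and 3 of the 9 and 9.16% of all genes had an unadjusted p below 0.05. To pass, a gene needed a Benjamini-Hochberg adjusted p below 0.05 over all 10720 genes tested and a log2 difference of 1 or more in either direction, and all 9 were among the genes tested. In that comparison 0.261% of all genes passed (28 genes), so the fit has few calls of any kind. Likewise 0 of 9 passed for radial glia-like minus Eomes-positive cells, where 0.131% of all genes passed, with 2 of the 9 and 10.1% of all genes below an unadjusted 0.05. In Eomes-positive minus newborn neuron-like cells 0 of 9 passed, where 0.233% of all genes passed, with 5 of the 9 and 11.6% of all genes below an unadjusted 0.05. Between newborn and excitatory neuron-like cells 0 of 9 and 0% of all genes passed, with 0 of the 9 and 1.61% of all genes (173) below an unadjusted 0.05. With the 19 Slc1a3-high cells as the radial glia, 2 of the 9, Ccnd2 and Ccnd1, were higher than in excitatory neuron-like cells, where 5.28% of all genes passed and 4.01% were called higher. In Slc1a3-high minus Eomes-positive cells 0 of 9 passed, against 1.36% of all genes. On the 10 Slc1a3-high cells without Olig1, Ccnd2 passed against excitatory neuron-like cells and Ccnd1 did not, where 2.67% of all genes passed, and Gadd45g passed as lower than in Eomes-positive cells, where 0.737% did. The 2 Slc1a3-high cells with more than 10 TPM of Gadd45g were among the cells left out. The Slc1a3-high comparisons rest on a division made after the data were seen, and all of them share classes with each other. Differences below are in mean log2(TPM + 1), with the standard error (SE) of this fit. That scale understates the change of genes near the floor.

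**Figure D1:**
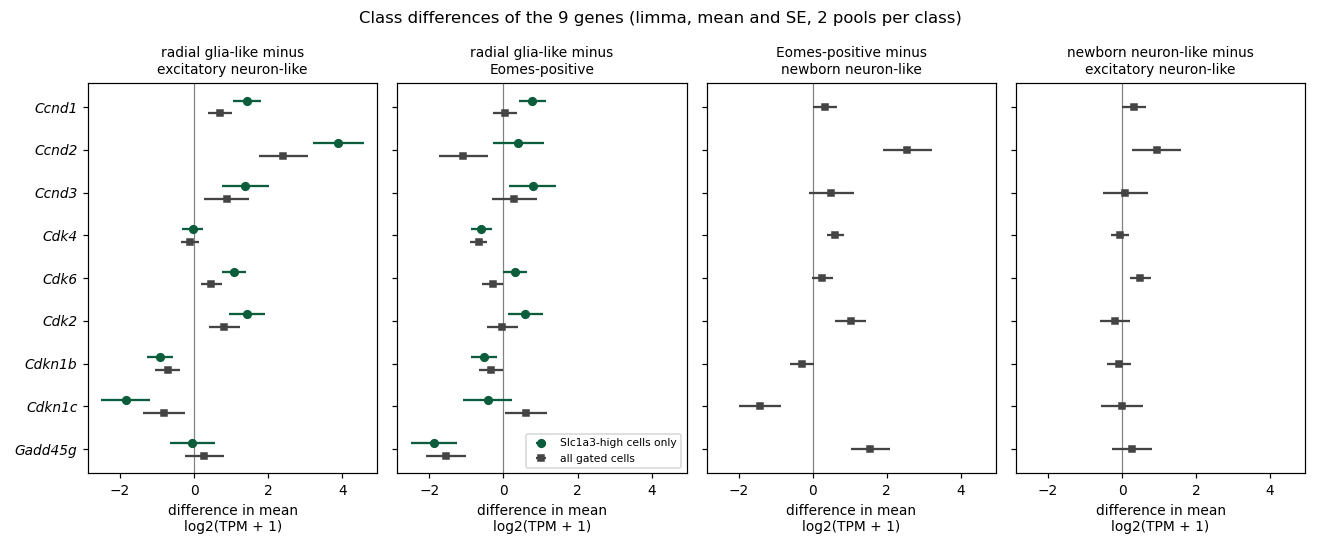
Differences in mean log2(TPM + 1) of the 9 genes between classes, with the SE of the limma fit (2 pools per class); squares use all gated cells and circles the 19 Slc1a3-high radial glia-like cells. Ccnd2 has the largest difference in the first and the third panel (2.41 and 2.56 with all gated cells), while all 9 lie within 0.94 of 0 between newborn and excitatory neuron-like cells.

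Ccnd2, the D cyclin of cortical intermediate and basal progenitors, was the member whose class means of log2(TPM + 1) had the widest range. In radial glia-like cells its lowest, median and highest levels were 1.598, 65.5 and 837 TPM. In Eomes-positive cells they were 1.79, 117 and 969 TPM. In newborn neuron-like cells they were 1.66, 17.6 and 289 TPM, and in excitatory neuron-like cells 1.33, 2.18 and 375 TPM. The ranges over cells overlap, but the middle of the distribution lay well above the floor in both progenitor classes and near the floor in excitatory neurons. Ccnd2 RNA was seen in 86.8% of the radial glia-like cells (33 of 38, exact 95% interval 71.9 to 95.6%), 29 of 32 Eomes-positive cells, 38 of 55 newborn neuron-like cells and 31 of 65 excitatory neuron-like cells (47.7%, 35.2 to 60.5%). These intervals cover counting error only, because cells of a pool share their source.

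By pool, mean Ccnd2 was 147 and 128 TPM in radial glia-like cells, 241.9 and 241.6 TPM in Eomes-positive cells, 49.5 and 35.8 TPM in newborn neuron-like cells, and 22.7 and 41.4 TPM in excitatory neuron-like cells. Both pools of each progenitor class were thus above both pools of each of these neuron classes. The log2 difference was 2.41 ± 0.66 for radial glia-like minus excitatory neuron-like cells (limma adjusted p = 0.158) and 2.56 ± 0.66 for Eomes-positive minus newborn neuron-like cells (adjusted p = 0.112). It was -1.08 ± 0.66 for radial glia-like minus Eomes-positive cells (adjusted p = 0.617) and 0.94 ± 0.66 for newborn minus excitatory neuron-like cells (adjusted p = 0.9995).

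Within the radial glia gate, Ccnd2 differed with Slc1a3. The Slc1a3-high cells averaged 239.7 TPM and the Slc1a3-low cells 34.1 TPM. The Slc1a3-high mean is close to that of Eomes-positive cells (242 TPM), and the log2 difference between these classes was 0.40 ± 0.69 (limma adjusted p = 0.836). Against excitatory neuron-like cells the Slc1a3-high cells were higher by 3.90 ± 0.69 on the log2 scale (adjusted p = 0.0041), with 3.82 in pool 1 and 3.98 in the other pool. Without the cells with Olig1 the difference was 3.44 ± 0.72 (adjusted p = 0.0299). Cells of the interneuron-like class, a lineage that arises in the ventral forebrain, averaged 134 TPM, with 16 of 30 cells detected and 1 cell at 2193 TPM.

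Ccnd1, the classical D cyclin of proliferating cells, was detected in few cells of any class. Its RNA was seen in 10 of 38 radial glia-like cells, 6 of 32 Eomes-positive cells, 8 of 55 newborn neuron-like cells and 5 of 65 excitatory neuron-like cells, so the median of each class was at or near the floor (1.75 to 1.88 TPM). The highest cell had 169, 355, 81.3 and 76.6 TPM in these classes, in the same order. Among radial glia-like cells, 9 of the 10 with Ccnd1 were Slc1a3-high. Its mean was 32.4 TPM in the 19 Slc1a3-high cells (9 detected, 47.4%, exact 95% interval 24.4 to 71.1%) and 2.23 TPM in the 19 Slc1a3-low cells (1 detected). The log2 difference of all radial glia-like cells to excitatory neuron-like cells was 0.69 ± 0.33 (limma adjusted p = 0.538). With the Slc1a3-high cells alone it was 1.43 ± 0.37 (adjusted p = 0.0357), 1.77 in pool 1 and 1.08 in pool 2. That call was lost without the cells with Olig1, where the difference was 0.36 ± 0.42 (adjusted p = 0.665). Ccnd1 was detected in 6 of the 9 Slc1a3-high cells with Olig1 (mean 57.3 TPM) and in 3 of the 10 without (mean 10.02 TPM). Detection also differed with cycling, which was judged by mitosis genes as described below. Ccnd1 was detected in 8 of 13 cycling and 1 of 6 non-cycling Slc1a3-high cells. Olig1 was likewise detected in 8 of these 13 cycling and 1 of these 6 non-cycling cells. Whether the loss of the call follows Olig1 or cycling was not tested. Of 10 other settings of Slc1a3-high minus excitatory neuron-like cells with a test, Ccnd1 passed in 5, whereas Ccnd2 passed in all 10.

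Ccnd3, the D cyclin with the widest tissue distribution, was either at the floor or well above it. It was detected in 13 of 38 radial glia-like, 9 of 32 Eomes-positive, 12 of 55 newborn neuron-like and 14 of 65 excitatory neuron-like cells. Where detected, its median level was 112 TPM in radial glia-like, 159 TPM in Eomes-positive, 111 TPM in newborn neuron-like and 151 TPM in excitatory neuron-like cells. The difference of radial glia-like minus excitatory neuron-like cells was 0.89 ± 0.61 (limma adjusted p = 0.734), and 1.38 ± 0.63 with the Slc1a3-high cells (adjusted p = 0.243). Detection differed by suffix: 37 of 123 cells with suffix A and 18 of 98 with suffix B had Ccnd3. This was not particular to Ccnd3, since Cdk2 was detected in 28 and 9 and Ccnd2 in 89 and 59 of these cells. Cdkn1b went the other way, with 34 of 123 and 33 of 98. Suffix and class are mixed, as 33 of 38 radial glia-like cells had suffix A.

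**Figure D2:**
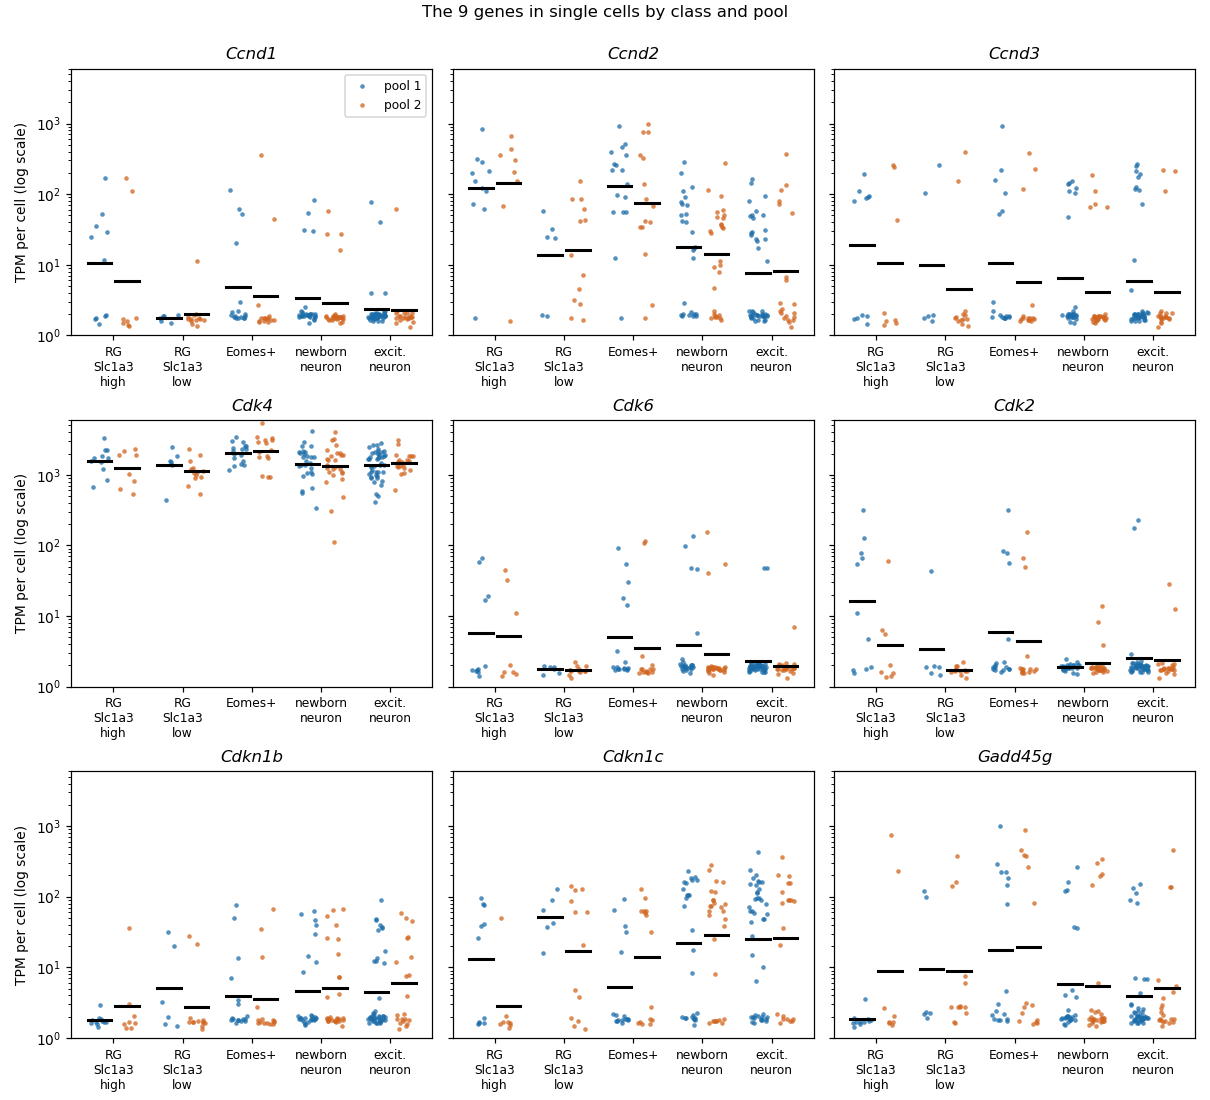
TPM of the 9 genes in each cell (points, log axis) by class and pool, with radial glia-like cells (RG) divided by Slc1a3; black lines are the pool means of log2(TPM + 1), turned back to TPM. Cells in the band between 1.33 and 2.998 TPM are mostly at their floor; Ccnd2 is above it in 29 of 32 Eomes-positive and 31 of 65 excitatory neuron-like cells, and Cdk4 is above it in every cell.

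Cells differed in how many D cyclins they held. All 3 were detected together in 7 of 38 radial glia-like cells and in 4 of 32 Eomes-positive cells, and in 0 of 55 newborn and 0 of 65 excitatory neuron-like cells. In these 2 neuron classes Ccnd1 alone was detected in 8 and 5 cells, so a count of 0 says little. Interneuron-like cells held all 3 in 2 of 30. The 7 radial glia-like cells were all among the 19 Slc1a3-high cells. No D cyclin was detected in 3 radial glia-like, 3 Eomes-positive, 10 newborn neuron-like and 21 excitatory neuron-like cells. The sum of the 3 had a median of 159 TPM in radial glia-like cells (314 TPM in the Slc1a3-high cells), 212 TPM in Eomes-positive cells, 49.5 TPM in newborn neuron-like cells and 25.3 TPM in excitatory neuron-like cells. Ccnd2 made up 64.8% of the summed D cyclin TPM in radial glia-like cells, 72.2% in Eomes-positive cells, 56.2% in newborn neuron-like cells and 42.9% in excitatory neuron-like cells. Among progenitors, Ccnd1 was found in cells that also held Ccnd2, in 10 of 10 radial glia-like and 6 of 6 Eomes-positive cells. That is near the share of all cells of these classes with Ccnd2, 33 of 38 and 29 of 32. In excitatory neuron-like cells 1 of the 5 cells with Ccnd1 held Ccnd2, against 31 of all 65.

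**Figure D3:**
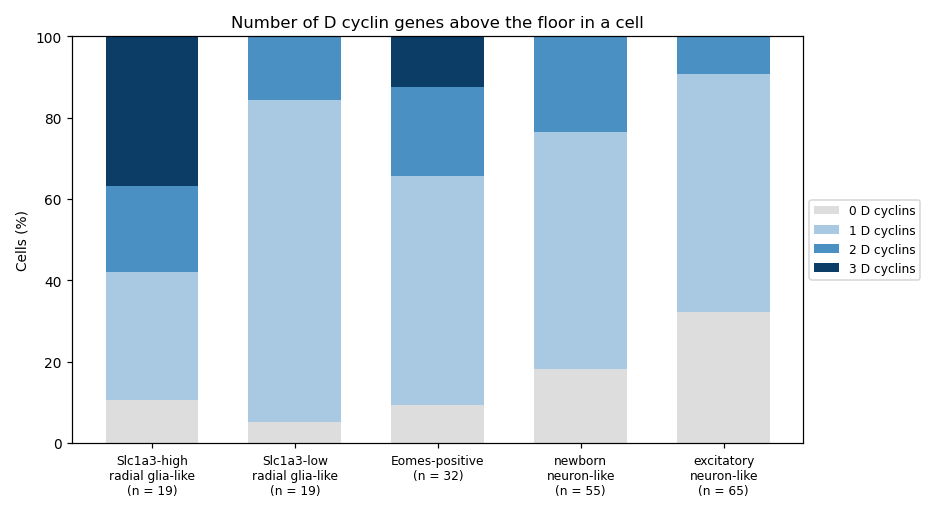
Percentage of cells of each class in which 0, 1, 2 or 3 of the genes Ccnd1, Ccnd2 and Ccnd3 were above the floor. All 3 occurred in 7 of 19 Slc1a3-high radial glia-like cells and 4 of 32 Eomes-positive cells, and in no cell of the other classes shown. Interneuron-like cells, not shown, had all 3 in 2 of 30.

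Of the 3 kinases, Cdk4 had a far higher mean level than Cdk6 and Cdk2 in each class. Cdk4, the main partner of D cyclins, was detected in 221 of 221 cells. Its lowest, median and highest levels were 444, 1446 and 3266 TPM in radial glia-like cells, 929, 2187 and 5443 TPM in Eomes-positive cells, 113, 1454 and 4197 TPM in newborn neuron-like cells, and 408, 1504 and 3117 TPM in excitatory neuron-like cells. Both neuron classes thus held Cdk4 RNA at more than 100 TPM in every cell. The difference of radial glia-like minus excitatory neuron-like cells was -0.12 ± 0.24 (limma adjusted p = 0.956), and it was -0.04 ± 0.28 with the Slc1a3-high cells (adjusted p = 0.956). Eomes-positive cells had the highest mean, 2271 TPM, against 1614 TPM in newborn neuron-like cells, a difference of 0.61 ± 0.24 (adjusted p = 0.316). Radial glia-like cells averaged 1447 TPM, which gave a difference of -0.67 ± 0.24 to Eomes-positive cells (adjusted p = 0.333). In both of these comparisons each pool showed the same direction. Of the summed TPM of Cdk4, Cdk6 and Cdk2, Cdk4 made up 98.0% in the radial glia-like class and 99.2% in the excitatory neuron-like class.

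Cdk6, the other kinase of D cyclins, was sparse. It was detected in 7 of 38 radial glia-like, 9 of 32 Eomes-positive, 8 of 55 newborn neuron-like and 3 of 65 excitatory neuron-like cells, with means of 7.94, 15.1, 12.1 and 3.35 TPM in that order. The 7 radial glia-like cells were all Slc1a3-high (7 of 19), and 0 of 19 Slc1a3-low cells had it. A count of 0 of 19 allows a share of up to 17.6% (exact 95% interval). The difference to excitatory neuron-like cells was 0.47 ± 0.28 for all radial glia-like cells (limma adjusted p = 0.686) and 1.07 ± 0.32 for Slc1a3-high cells (adjusted p = 0.0658), with 1.06 in pool 1 and 1.08 in pool 2.

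Cdk2, the kinase of cyclins E and A that drives entry into S phase, was detected in 13 of 38 radial glia-like cells, 9 of 32 Eomes-positive cells, 4 of 55 newborn neuron-like cells and 6 of 65 excitatory neuron-like cells. Its mean levels were 21.8, 26.9, 2.23 and 8.62 TPM in this order. Newborn neuron-like cells were thus nearly all at the floor, with a highest value of 13.9 TPM, against 322 TPM in Eomes-positive cells. The difference of Eomes-positive minus newborn neuron-like cells was 1.03 ± 0.41 (limma adjusted p = 0.333). Of the 13 radial glia-like cells with Cdk2, 12 were Slc1a3-high, which is 63.2% of that class (exact 95% interval 38.4 to 83.7%) and the highest share of any class. Of these 12, 7 exceeded 10 TPM and the other 5 were closer to the floor; above 10 TPM were 7 of 19 Slc1a3-high, 7 of 32 Eomes-positive, 1 of 55 newborn neuron-like and 4 of 65 excitatory neuron-like cells. Its level there depended on the pool, with a mean of 61.1 TPM in pool 1 and 9.99 TPM in pool 2. The difference of Slc1a3-high minus excitatory neuron-like cells was 1.43 ± 0.48 (adjusted p = 0.101), with 2.31 in pool 1 and 0.55 in pool 2.

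**Figure D4:**
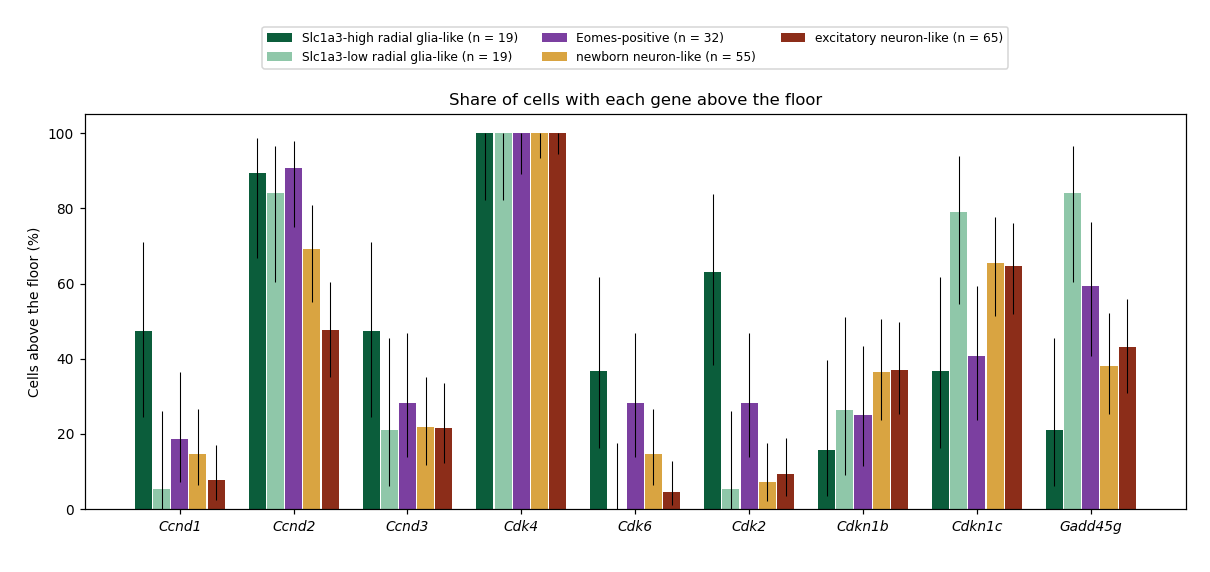
Percentage of cells of each class in which each of the 9 genes was above the floor, with exact 95% intervals that cover counting error only. Cdk2 was detected in 12 of 19 Slc1a3-high radial glia-like and 4 of 55 newborn neuron-like cells (7 of 19 and 1 of 55 above 10 TPM), while Cdkn1c was detected in 7 of 19 Slc1a3-high cells, against 42 of 65 excitatory neuron-like cells.

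Among the inhibitors, Cdkn1c, which is imprinted and expressed from the maternal allele, was the more abundant and was detected in 129 of 221 cells. Its lowest, median and highest levels were 1.34, 18.1 and 143 TPM in radial glia-like cells, 1.56, 2.08 and 127 TPM in Eomes-positive cells, 1.52, 62.7 and 279 TPM in newborn neuron-like cells, and 1.63, 56.3 and 434 TPM in excitatory neuron-like cells. The median of Eomes-positive cells was thus lower than in these other 3 classes and lay at the floor. That of the Slc1a3-high cells (1.70 TPM) lay at the floor too, so these 2 medians carry no ranking. The difference of Slc1a3-high minus Eomes-positive cells was -0.42 ± 0.66 (limma adjusted p = 0.814), with 1.14 in pool 1 and -1.98 in pool 2. The difference of radial glia-like minus Eomes-positive cells changed sign between pools, with 1.82 in pool 1 and -0.59 in pool 2. Cdkn1c was detected in 22 of 38 radial glia-like, 13 of 32 Eomes-positive, 36 of 55 newborn neuron-like and 42 of 65 excitatory neuron-like cells. Within the radial glia gate it ran against the D cyclins: 7 of 19 Slc1a3-high cells had it (mean 22.4 TPM), against 15 of 19 Slc1a3-low cells (mean 53.5 TPM). The difference of Eomes-positive minus newborn neuron-like cells was -1.42 ± 0.57 (limma adjusted p = 0.333). For Slc1a3-high minus excitatory neuron-like cells it was -1.85 ± 0.66 (adjusted p = 0.125), and -0.82 ± 0.57 with all radial glia-like cells (adjusted p = 0.746). The size depended on the pool, at -0.90 in pool 1 and -2.80 in pool 2 for the Slc1a3-high cells, in which Cdkn1c was detected in 6 of 11 and 1 of 8 cells. Newborn and excitatory neuron-like cells differed by -0.01 ± 0.57 (adjusted p = 0.9995).

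Cdkn1b, the other Cip/Kip inhibitor, was low throughout and was detected in 67 of 221 cells. Its RNA was seen in 8 of 38 radial glia-like, 8 of 32 Eomes-positive, 20 of 55 newborn neuron-like and 24 of 65 excitatory neuron-like cells. Mean levels were 5.16, 9.66, 11.8 and 11.3 TPM in these classes, and where detected the median was 25.6 TPM in newborn and 21.6 TPM in excitatory neuron-like cells. The difference of radial glia-like minus excitatory neuron-like cells was -0.72 ± 0.33 (limma adjusted p = 0.525), and -0.91 ± 0.35 with the Slc1a3-high cells (adjusted p = 0.157), with the same sign in each pool. Both inhibitors were detected together in 0 of 19 Slc1a3-high cells, 3 of 32 Eomes-positive cells, 10 of 55 newborn and 17 of 65 excitatory neuron-like cells. Neither was detected in 9 of 19, 14 of 32, 9 of 55 and 16 of 65 cells of these classes. In Slc1a3-high cells Cdkn1b was detected in 3 of 19 and Cdkn1c in 7 of 19, so the count of 0 with both says little. Slc1a3-low cells held both in 5 of 19 and neither in 4.

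A D cyclin and an inhibitor could be detected in the same cell. Ccnd1 and Cdkn1c were detected together in 14 of 221 cells, 2 of them among the 9 Slc1a3-high cells with Ccnd1. In neurons the overlap was 5 of 8 newborn neuron-like and 3 of 5 excitatory neuron-like cells with Ccnd1. That is near the share of all cells of these classes with Cdkn1c, 36 of 55 and 42 of 65. In Slc1a3-high cells that share was 7 of 19. Ccnd2 and Cdkn1b were detected together in 16 of the 38 newborn neuron-like cells with Ccnd2, and in 3 of the 17 Slc1a3-high cells with Ccnd2. This too is near the share of all cells of these classes with Cdkn1b, 20 of 55 and 3 of 19.

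Gadd45g had its highest mean of these 4 classes in Eomes-positive cells. Its lowest, median and highest levels there were 1.56, 2.95 and 1012 TPM. They were 1.44, 2.21 and 747 TPM in radial glia-like, 1.48, 1.95 and 337.5 TPM in newborn neuron-like, and 1.498, 2.01 and 461.5 TPM in excitatory neuron-like cells. Mean levels were 51.4 TPM in radial glia-like cells, 146 TPM in Eomes-positive cells, 37.0 TPM in newborn neuron-like cells and 22.2 TPM in excitatory neuron-like cells. Eomes-positive cells averaged 128 TPM in pool 1 and 165.5 TPM in pool 2, so the pools were close. The difference was 1.55 ± 0.53 for Eomes-positive minus newborn neuron-like cells (limma adjusted p = 0.242) and -1.55 ± 0.53 for radial glia-like minus Eomes-positive cells (adjusted p = 0.311). Both turn with the order of the gates: where the radial glia gate was applied before Eomes, they were -0.0653 and 1.02. For Slc1a3-high minus Eomes-positive cells it was -1.88 ± 0.61 (adjusted p = 0.141), with -2.72 in pool 1 and -1.03 in pool 2. On the 10 Slc1a3-high cells without Olig1, 1 of which had Gadd45g above the floor (mean 1.76 TPM), it was -2.81 ± 0.52 (adjusted p = 0.0384). The 2 Slc1a3-high cells with more than 10 TPM of Gadd45g both had Olig1 and so were left out there, while Eomes-positive cells with Olig1 were kept. The mean over the 9 cells with Olig1 was 110.6 TPM. In the Slc1a3-high cells the gene was detected in 4 of 19, and its mean was 1.88 TPM in pool 1 and 124 TPM in pool 2, where 2 cells exceeded 10 TPM.

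The share of cells with Gadd45g above the floor is a poor measure of it. Of 100 cells in which it was detected, 56 had less than 10 TPM, with a median of 1.502 times the floor of their cell. These faint values were spread over both pools (28 cells in each) but were unequal by suffix in pool 2, with 23 of 66 cells of suffix A and 5 of 33 of suffix B. At 10 TPM or more it was present in 7 of 38 radial glia-like cells (2 of 19 Slc1a3-high), 13 of 32 Eomes-positive cells, 11 of 55 newborn neuron-like cells and 8 of 65 excitatory neuron-like cells. By this stricter measure Eomes-positive cells are again the class with the largest share. Below 10 TPM were also 14 of the 37 cells with Cdk2, 18 of 67 with Cdkn1b, 5 of 29 with Cdk6 and 19 of 148 with Ccnd2, so the detected shares of Cdk2 and Cdkn1b carry the same limit. For Ccnd3 it was 1 of 55 cells and for Cdkn1c 6 of 129.

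The promoters of Cdk4, detected in every cell, and of Gadd45g, at 10 TPM or more in 44 of 221 cells, are shown as those of an evenly and a patchily detected gene. Each is the stretch of 250 bases before the gene's start from RefSeq (GRCm38.p6), written 5′ to 3′ on the plus strand, which is the coding strand of both genes. Capitals mark letters searched for on both strands: CAGCTG, an E-box form that proneural factors bind, GGGCGG, the GC box, TGGGAA, the core bound by the Notch effector Rbpj, and TTTNGCGC, a core of E2F sites. Cdk4 lies on chr10:127063534-127067920 and Gadd45g on chr13:51846678-51848468 (GRCm38).
Cdk4 promoter, chr10:127063285-127063534: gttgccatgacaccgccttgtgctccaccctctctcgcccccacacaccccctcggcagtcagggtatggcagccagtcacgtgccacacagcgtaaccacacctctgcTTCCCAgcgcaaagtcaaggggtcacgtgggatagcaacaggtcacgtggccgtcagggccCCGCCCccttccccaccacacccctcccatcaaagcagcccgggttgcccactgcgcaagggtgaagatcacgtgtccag
Gadd45g promoter, chr13:51846425-51846674: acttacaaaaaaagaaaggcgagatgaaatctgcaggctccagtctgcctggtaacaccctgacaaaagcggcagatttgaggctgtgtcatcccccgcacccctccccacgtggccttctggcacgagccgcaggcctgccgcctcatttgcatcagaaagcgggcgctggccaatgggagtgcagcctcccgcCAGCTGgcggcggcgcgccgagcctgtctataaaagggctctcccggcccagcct
In the Cdk4 stretch the capitals are a GC box (as CCGCCC) and the Rbpj letters (as TTCCCA). In the Gadd45g stretch they are the E-box letters, which read the same on both strands. Among 32851 promoters of this length, 13.0% hold CAGCTG, 32.7% the GC box, 21.6% TGGGAA and 1.13% TTTNGCGC. RefSeq stretches were matched for 6 of the 9 genes, and none of these 6 genes has TTTNGCGC in them. A match describes letters and not a bound site.

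Progenitors were also compared by whether they were dividing, judged by at least 3 of 14 mitosis genes (such as Mki67 and Top2a) above the floor. Of the 70 radial glia-like and Eomes-positive cells, 35 were cycling (10 in pool 1 and 25 in pool 2) and 35 were not (24 and 11). The arms differ in class too: 24 radial glia-like and 11 Eomes-positive cells were cycling, and 14 and 21 were not, so class and cycling are mixed in each difference. The rule is lenient, since it also takes in 10 of 55 newborn and 6 of 65 excitatory neuron-like cells. Of the 24 cycling radial glia-like cells 11 were Slc1a3-low, a class in which mitosis genes were faint (473 TPM of Birc5 and 30.4 TPM of Mki67 on average in Slc1a3-high cells, against 2.83 and 2.07 TPM in Slc1a3-low cells). Ccnd3 and Ccnd1 showed the widest separation. Ccnd3 was detected in 15 of 35 cycling and 7 of 35 non-cycling cells, and Ccnd1 in 12 of 35 cycling and 4 of 35 non-cycling cells. Within radial glia-like cells Ccnd3 was detected in 11 of 24 cycling and 2 of 14 non-cycling cells and Ccnd1 in 9 of 24 and 1 of 14, and within Eomes-positive cells Ccnd3 in 4 of 11 and 5 of 21 and Ccnd1 in 3 of 11 and 3 of 21. In pool 2 all 11 non-cycling cells were at the floor for both genes, against 8 of 25 cycling cells with Ccnd3 and 6 of 25 with Ccnd1. The log2 differences of cycling minus non-cycling progenitors were 1.87 ± 0.72 for Ccnd3 (limma adjusted p = 0.463) and 1.19 ± 0.53 for Ccnd1 (adjusted p = 0.538), positive in each pool. None of the 9 genes passed in this comparison of 4 profiles, where 0% of 10706 genes passed, and 2 of the 9 and 8.62% of all genes (923) had an unadjusted p below 0.05. With Slc1a3-high cells as the radial glia, 0 of the 9 and 0.271% of all genes passed, and the differences were 2.11 ± 0.80 for Ccnd3 and 1.59 ± 0.66 for Ccnd1.

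Ccnd2 was detected in 31 of 35 cycling and 31 of 35 non-cycling progenitors, with means of 195 and 175 TPM, and the difference changed sign between pools (-0.39 in pool 1 and 1.20 in pool 2). It was 0.41 ± 0.65 in all (limma adjusted p = 0.903) and 1.01 ± 0.70 with Slc1a3-high cells as the radial glia (adjusted p = 0.688), and whether Ccnd2 differs from Ccnd1 and Ccnd3 in this was not tested. Cdk4 averaged 1916 TPM in cycling and 1732 TPM in non-cycling cells. Cdk2 was detected in 11 of 35 cells of each kind, and its difference was 0.87 ± 0.59 (limma adjusted p = 0.73). For Cdkn1b the difference was -0.57 ± 0.35 (adjusted p = 0.693), with 6 of 35 cycling and 10 of 35 non-cycling cells positive. Cdkn1c and Gadd45g differed by -0.06 ± 0.62 and -0.07 ± 0.64, less than the SE in size.

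**Figure D5:**
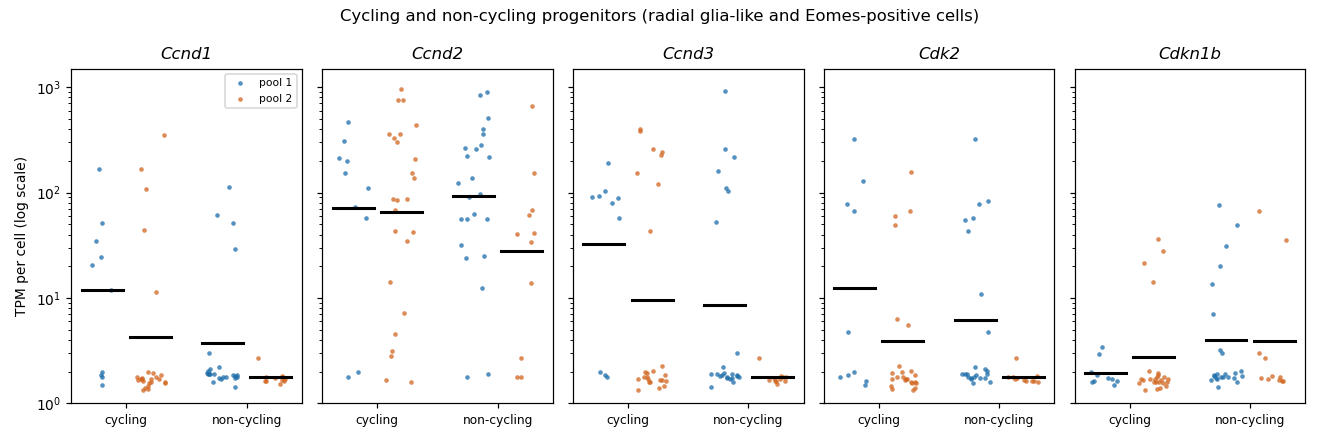
TPM of 5 of the genes in each of 35 cycling and 35 non-cycling progenitors (points, log axis) by pool; black lines are the pool means of log2(TPM + 1), turned back to TPM. In pool 2 the 11 non-cycling cells are all at the floor for Ccnd1 and Ccnd3, while Ccnd2 is above the floor in 31 of 35 cells of each kind.

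Other genes of the same machinery were read from lists, and in each of the 4 class comparisons with all gated radial glia-like cells 0 of their members passed. In radial glia-like minus excitatory neuron-like cells the median log2 difference was 0.47 over the 9 genes, 0.40 over 24 tested genes of G1 and S entry (cyclins E and A, retinoblastoma and E2F families), 0.74 over 12 S phase genes and 1.07 over 14 mitosis genes, against -0.02 over all genes tested. For Eomes-positive minus newborn neuron-like cells these medians were 0.51, 0.37, 1.46 and 0.99, against 0.06 over all genes. In the cycling comparison 0 of 24 genes of G1 and S entry passed, with a median of 0.31, and with Slc1a3-high cells as the radial glia Cks1b (5.29 ± 0.84, limma adjusted p = 0.0059) and Ccna2 (4.63 ± 0.80, adjusted p = 0.0141) did. Cks1b encodes a small subunit that Cdk complexes need, and Ccna2 encodes cyclin A2, the S phase partner of Cdk2. Since the arms were set by mitosis genes, calls of other genes of dividing cells can follow from the split itself.

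Set against excitatory neuron-like cells, the Slc1a3-high cells were higher in 13 of 14 mitosis genes, 3 of 12 S phase genes, 2 of 24 genes of G1 and S entry and 1 of 8 other Cdk inhibitors and exit genes, where 4.01% of all genes were called higher. These counts shrink on the 10 Slc1a3-high cells without Olig1, to 3 of 14 mitosis genes (Aurkb, Nusap1 and Top2a), 1 of 12 S phase genes (Mcm3), 1 of 24 genes of G1 and S entry (Cdt1) and 0 of 8 inhibitors and exit genes, where 2.67% of all genes passed. The cells left out include 8 of the 13 cycling Slc1a3-high cells, so Olig1 and cycling cannot be told apart in this. The mitosis genes with the largest differences were Birc5 (4.01 ± 0.71), Ube2c (3.76 ± 0.89), Cdk1 (3.36 ± 0.60) and Top2a (2.73 ± 0.48). Mcm3 (2.56 ± 0.38), Mcm2 (1.77 ± 0.46) and Mcm4 (1.76 ± 0.45), subunits of the replicative helicase, passed in the S phase list, and Ccna2 (2.58 ± 0.50) and Rbl1 (1.43 ± 0.28), a retinoblastoma relative, among G1 and S entry genes. The inhibitor that passed was Cdkn2c (1.48 ± 0.34, limma adjusted p = 0.0191). It blocks Cdk4 and Cdk6, and it was higher, not lower, in the Slc1a3-high cells, with 7 of 19 cells detected, against 2 of 65 excitatory neuron-like cells. Cdkn1a, the remaining Cip/Kip inhibitor, was detected in 2 of 19 Slc1a3-high, 2 of 32 Eomes-positive, 3 of 55 newborn and 0 of 65 excitatory neuron-like cells. Of 10 other Cdk and cyclin genes known from neurons, Cdk5r1, the activator of the neuronal kinase Cdk5, was lower (-2.01 ± 0.55, adjusted p = 0.0454), and 0 of the 10 passed without the Olig1 cells. In Slc1a3-high minus Eomes-positive cells, Mycn, a driver of G1 progression in neural progenitors, was lower (-2.80 ± 0.60, adjusted p = 0.0306) and Nusap1, a spindle protein, was higher (1.73 ± 0.41, adjusted p = 0.0455), and neither passed without the Olig1 cells.

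Several of these genes share exonic bases with a gene on the other strand, and whether reads were counted by strand is not given in the sources used here. The overlap is 1100 of 4709 exonic bases for Ccnd1 (with LTO1), 641 of 3249 for Cdk4 (with Tspan31) and 625 of 2039 for Cdkn1c (with Gm44732). For Ccnd2 it is 372 and 368 of 9409 bases, for Ccnd3 361 of 8775, for Cdk6 368 of 13989 and for Cdk2 34 of 6219. Cdkn1b and Gadd45g have none. The part of these partners in the levels was not tested. In GRCm38, Ccnd2 lies at chr6:127125162-127152193 and Ccnd1 at chr7:144929931-144939925, both on the minus strand, and Cdkn1c at chr7:143458339-143461050, also on the minus strand. Ccnd3 lies at chr17:47505051-47599691, Cdk6 at chr5:3341485-3531008 and Cdkn1b at chr6:134920401-134925513, all on the plus strand, and Cdk2 at chr10:128697939-128705031 on the minus strand. All 9 are annotated as protein-coding.

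The genes most like each of the 9 were taken by Pearson's r of log2(TPM + 1) over all 221 cells, among 9309 genes. All cells share 2 pools and a floor, so these values are descriptions. Ccnd2 was closest to Fabp7, a fatty acid binding protein of radial glia (r = 0.506), followed by H1f0 (0.489) and Hes5 (0.487), a Notch target. Ccnd1 was closest to Litaf (0.429), Notch1 (0.406) and Map3k1 (0.401), and Ccnd3 to Litaf (0.373), Sox9 (0.366) and Hopx (0.341). Sox9 and Hopx are transcriptional regulators found in radial glia. For Cdk2 the closest were Dscc1 (0.514), Tmem132b (0.449) and Mcm5 (0.441), and for Cdk6 Ezr (0.366), Pdpn (0.364) and Pax6 (0.352). Dscc1 serves sister chromatid cohesion and Mcm5 is a helicase subunit. Pax6 is a transcription factor of radial glia, detected here in 17 of 38 radial glia-like (12 of 19 Slc1a3-high) and 26 of 32 Eomes-positive cells. Cdk4 was closest to the ribosomal protein gene Rpl7 (0.401), Tspan3 (0.323) and H2afv (0.322). The values were lower for Cdkn1b with Pou3f3 (0.298), Mnt (0.275) and Meis2 (0.257), for Cdkn1c with Spop (0.317), Mef2c (0.294) and Spnb2 (0.293), and for Gadd45g with Atg4b (0.31), Hmg20b (0.283) and Bet1 (0.278). Mef2c is a transcription factor of cortical neurons.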

How the data were processed

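The deposited values are TPM per gene and cell; per the submitters' processing notes the authors used Bowtie2 2.2.6, TopHat2 2.0.14 and Cufflinks 2.2.1 with mm10. The steps that made TPM, and any use of strand, are not given in the sources used here. In the deposited TPM table many genes of a cell share its lowest value, here called the floor; how it arose is not given in the sources used here, genes at it carry no ranking, and read depth is unknown. No doublet caller was run.

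Cells were sorted into classes by marker gates, and log2(TPM + 1) was averaged per class and pool (at least 4 cells). The test was limma 3.58.1 under R 4.3.3 (trend and robust variances, two-sided, 5 residual degrees of freedom, and 2 in the cycling comparison), without pool as a term, after testing on simulated data. Tested were genes detected in 10 cells or more, gate markers left out. Pools are the replicates (n = 2). The p-values rest on the spread between pools, taken over all groups of a fit and moderated across genes. That spread also holds the sampling of the cells in each profile. Classes of a pool come from the same animals, which pairs them. Pool deviations of classes were correlated by -0.0371 to 0.0429 across genes. The members and lists were chosen with earlier results of these data known. Named were the 9 genes, the 3 genes most correlated with each, and the called list genes, at most 4 per list and comparison. Positions and exons are from GENCODE on GRCm38. Python 3.11.15 was used for the rest.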

Additional observations from a re-analysis of the deposited data

How the results depend on the processing

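The number of genes called depends on the settings. In radial glia-like minus excitatory neuron-like cells (28 genes called), the count was 43 with floor values at 0, 44 with values over the floor, 48 with quantile normalization, 6 without the filter on low values, 0 with a gate of 4 radial glia markers and 152 with one of 6, 1 with Eomes of at least 50 TPM, 89 with profiles weighted by cells, 59 with pool and suffix as units, 15 with the pool as a replicate block, and 566 with the Slc1a3-high cells alone. In radial glia-like minus Eomes-positive cells (14 called) it was 0 with the log2 of the mean TPM, 27 with quantile normalization, 4 without the filter, 8 with a gate of 4 markers, 36 with one of 6, 24 with Eomes of at least 50 TPM, 30 with the radial glia gate applied before Eomes, 9 when weighted, 23 with suffix units and 146 with the Slc1a3-high cells; with the replicate block it was 10. In Eomes-positive minus newborn neuron-like cells (25 called) it was 5 without the filter, 45 with a gate of 4 markers, 5 with one of 6, 77 with Eomes of at least 50 TPM, 0 with the radial glia gate first, 50 without radial glia-like cells of high Neurod6, 50 when weighted, 0 with suffix units, 7 with the replicate block and 0 with the Slc1a3-high cells in the fit. In the cycling comparison (0 called) it was 5 with the log2 of the mean TPM, 7 without the filter, 7 without radial glia-like cells of high Neurod6, 8 with at least 5 mitosis genes and 29 with the Slc1a3-high cells. The cause of these shifts was not tested. In Slc1a3-high radial glia-like minus excitatory neuron-like cells the 566 calls became 299 at a limit of 50 TPM, 277 with the log2 of the mean TPM and 286 without the cells with Olig1, and in Slc1a3-high radial glia-like minus Eomes-positive cells the 146 became 66 at 50 TPM, 0 with the log2 of the mean, 53 when weighted and 79 without the Olig1 cells. Radial glia-like cells without high Neurod6 could not be compared, since pool 1 holds fewer than 4.

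Among the 9 genes, the replicate block changed no call with all gated cells. Ccnd2 in radial glia-like minus excitatory neuron-like cells passed when profiles were weighted by cells (2.39, limma adjusted p = 0.0497). In Slc1a3-high minus excitatory neuron-like cells Ccnd1 did not pass at Slc1a3 limits of 50 TPM (1.14, adjusted p = 0.0933) or 200 TPM (1.22, 0.0627), with a pseudocount of 10 (0.87, below the size limit) with the log2 of the mean (2.58, 0.106) or without the cells with Olig1 (0.36, 0.665). Cdk6 passed there with values over the floor (1.38) and quantile normalization (1.06), and Cdk2 when weighted (1.56). The Slc1a3 limits and the choice on Olig1 were set after the data were seen. Directions turned, for differences larger than their SE, chiefly in radial glia-like minus Eomes-positive cells. With the radial glia gate first, Ccnd2 was 0.39, Cdk6 0.21, Cdkn1b 0.0294 and Gadd45g 1.02, and Gadd45g in Eomes-positive minus newborn neuron-like cells was -0.0653. With the Slc1a3-high cells, Ccnd2 was 0.40, Cdk6 0.31 and Cdkn1c -0.42. Cdk6 was 0.0453 with Eomes of at least 50 TPM, and Cdkn1c was -0.16 with suffix units and -0.59 without pool 1, against 1.82 without pool 2. In Slc1a3-high minus Eomes-positive cells, Ccnd3 was -0.0565 and Cdk2 -0.0268 with the log2 of the mean, and Cdk2 was -0.15 without pool 1. Without the Olig1 cells Ccnd1 was -0.29 and Ccnd3 -0.0788, and Gadd45g passed (-2.81), with the 2 Slc1a3-high cells above 10 TPM of it left out.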
